A study of Mus musculus with 14 samples.

Results

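The genes examined were 8 members of the actin and tubulin families named *Actb*, *Actg1*, *Tuba1a*, *Tuba1b*, *Tuba1c*, *Tubb5*, *Tubb4b* and *Tubb6*. They were picked by symbol, so 8 of the 52459 genes in the count tables were members, and all 8 were among the 11869 genes with a mean of at least 1 FPKM at 0 h (fragments per kilobase of exon, relative to the summed counts of the library). The study asked how R255, an arginine of METTL14, the RNA-binding partner of the m6A methyltransferase METTL3, shapes mRNA methylation and mRNA lifetime. All cells were E14Tg2a mouse embryonic stem cells (mESCs) grown on gelatin with LIF, either wild type (WT) or carrying a lysine in place of that arginine (R255K), a knock-in made with CRISPR-Cas9 and isolated as a single colony. For mRNA lifetime, each genotype was sampled before and after 4 and 8 h in 5 µg/ml actinomycin D, which blocks transcription, and polyA RNA was sequenced from 1 library per genotype and time. For m6A mapping without actinomycin D, RNA fragments pulled down with an m6A antibody were sequenced beside their input in 2 libraries of each kind per genotype, which are held in 1 peak list per genotype. With 1 library per group there was no replicate error and no test. Every interval given for an expression value is a 95% counting interval, and a genotype difference cannot be told apart from a difference between the cell lines or libraries.

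β-actin and γ-actin, the products of *Actb* and *Actg1*, are the cytoplasmic actins that build the cell cortex, protrusions and stress fibres. α-tubulin and β-tubulin form the dimers that polymerise into microtubules, the tracks of intracellular transport and the fibres of the spindle. Several genes encode each of actin, α-tubulin and β-tubulin, and the protein isoforms are nearly alike. The longest stretch shared by a pair of mRNAs was 281 to 468 nt in the α-tubulins examined. It was 62 nt between the actins and 26 to 38 nt in the β-tubulins. Tubulin mRNAs are also known to be degraded in translation when free dimers accumulate, and cytoplasmic actin genes are classical targets of the serum response factor SRF. These transcripts are abundant and long-lived in most cells and are often used as a reference in qPCR. The m6A methyltransferase acts mainly on adenosines in a DRACH context, of which GGAC is the best known core, and m6A is typically densest near stop codons.

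The 6 libraries held 13812160 to 18813640 counts. All 7 stem cell markers (*Pou5f1*, *Sox2*, *Nanog*, *Zfp42*, *Esrrb*, *Dppa5a*, *Tdgf1*) were detected, with summed levels of 2367 to 2786 FPKM in the WT libraries and 1707 to 1917 FPKM in the R255K libraries. The 6 fibroblast markers summed to 1.66 to 2.21 FPKM in WT and 5.96 to 7.19 FPKM in R255K. *Col1a1* had 6 to 9 counts in WT and 150 to 226 in R255K, *Col1a2* 2 to 6 and 76 to 143, *Thy1* 81 to 94 and 188 to 257, and *Col3a1* 0 to 5 and 11 to 19. These 4 of 6 were higher in each R255K library than in any WT library, whereas *Postn* had 0 counts in WT and 0 to 2 in R255K and *Dcn* 1 to 5 and 1 to 9. Endoderm markers summed to 3.49 to 5.08 FPKM at 0 h. The part that these marker shifts play in any genotype difference reported here was not tested. In bulk RNA, a different number of cells of one type and a different amount of RNA per cell cannot be told apart.

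The methylation of the members was read from the peak lists, in which fold enrichment is the signal of the pulldown over its background as computed by the peak caller MACS2. On exons of the members lay 10 WT peaks and 11 R255K peaks. *Actb* carried 3 peaks in WT and 4 in R255K, *Actg1* 0 and 2, *Tubb5* and *Tubb4b* 2 each in both genotypes, and *Tubb6* 1 in both. *Tuba1b* and *Tuba1c* carried 1 each in WT and 0 in R255K, and *Tuba1a* had 0 in both. *Actb* and *Actg1* thus had more R255K than WT peaks, as had 13.2% of the 7222 genes with a peak, and *Actg1* had R255K peaks alone, as had 5.75%. These were weak peaks, since the median fold enrichment of the 10 WT peaks was 1.93 against 6.17 over all 13870 exonic WT peaks. On genes with at least 100 FPKM at 0 h, as 7 of the members were, the median was 2.62 over 342 WT peaks.

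Of the 10 WT peaks, 3 had no overlapping R255K peak (30%), against 47.9% of all exonic WT peaks and 24.6% of those on genes of at least 100 FPKM. Of the 11 R255K peaks, 4 had no WT counterpart (36.4%), against 13.1% of the 8818 exonic R255K peaks and 41.9% of the 449 on genes of at least 100 FPKM. Fold enrichment was higher in R255K in 5 of the 7 shared peaks, where 29% of all shared exonic peaks and 172 of the 258 on genes of at least 100 FPKM were higher. The shares of the members were thus nearer to those of highly expressed genes, a set that includes 7 of the members, than to those of all exonic peaks. They rest on 10, 11 and 7 peaks and were not tested. The map of peaks along the spliced mRNAs shows where each of them lay.

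**Figure D1:**
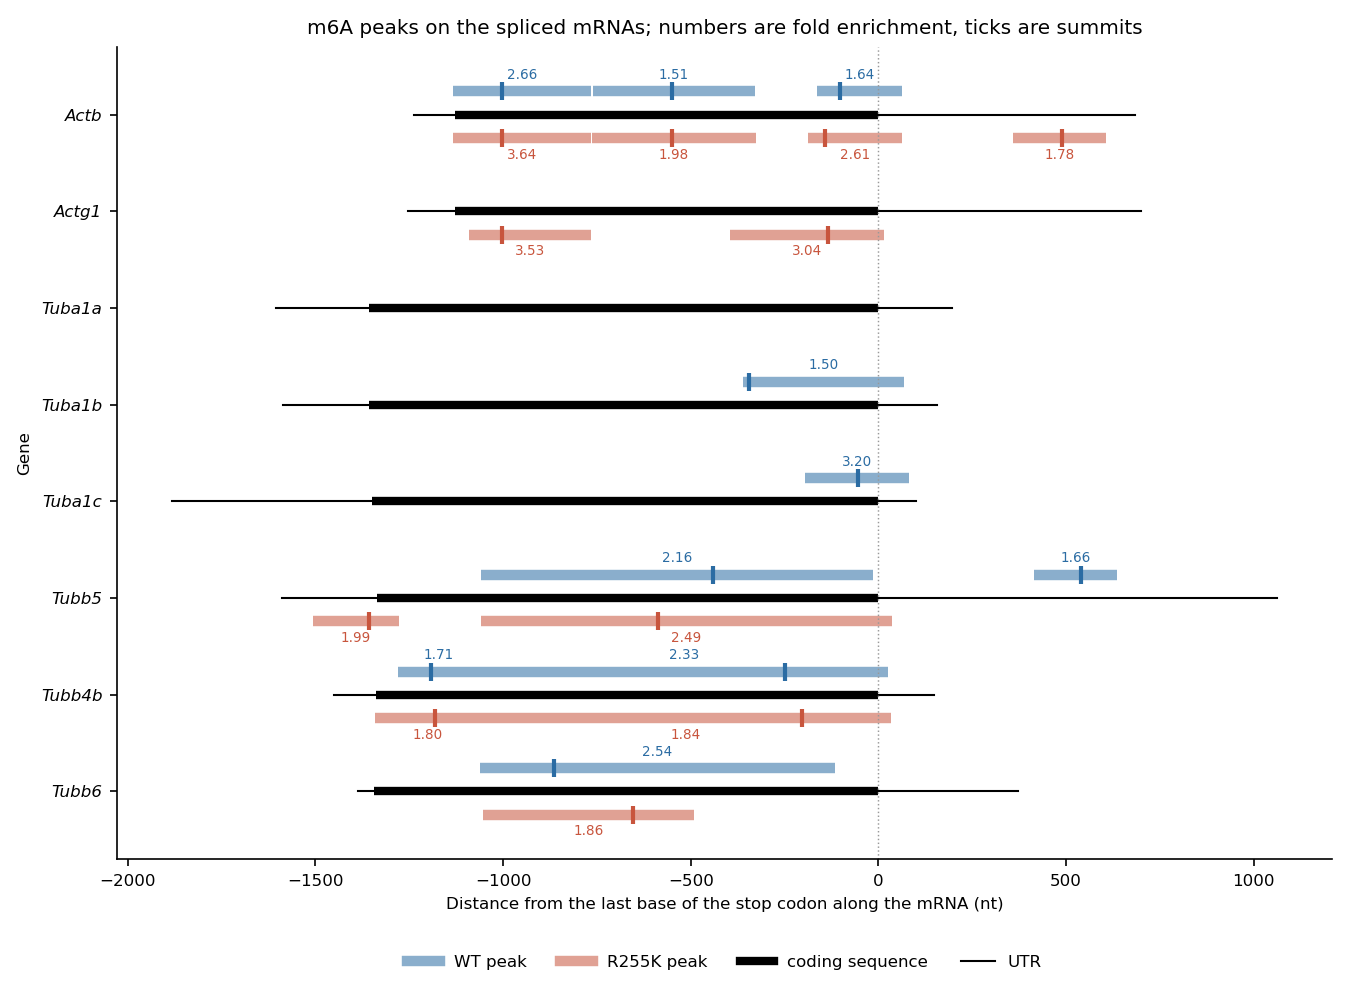
m6A peaks on the 8 mRNAs, placed by distance in nt along the spliced mRNA from the last base of the stop codon. Thick black bars are coding sequence, thin lines UTRs, blue bars WT peaks and red bars R255K peaks, each with its summit as a tick and its fold enrichment as a number; *Actg1* has red bars alone, *Tuba1b* and *Tuba1c* blue bars alone, and *Tuba1a* none.

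The 5′-most peak of *Actb* covered chr5:142905194-142905770 in WT (mm10) and had its summit 16 bp outside exon 3. Its fold enrichment was 2.66 in WT and 3.64 in R255K. In *Actg1* (chr11:120345690-120348542, minus strand), a peak on the matching stretch of exon 3 was called in R255K, enriched 3.53-fold at a −log10 q of 57.9 with its summit 18 bp outside the exon, and none was called in WT. Both summits were placed at the nearest base of exon 3, which lies -1004 nt from the last base of the stop codon in both mRNAs. The GGAC nearest to the *Actb* summit and the aligned bases of *Actg1* are shown because peaks of both genes cover this stretch of exon 3. All sequences are from the RefSeq copy of GRCm38.p6, the assembly of mm10, and run 5′ to 3′ on the strand of the gene, with GGAC or the bases aligned to it in capitals.
Actb, chr5:142905435-142905462, minus strand: aatgggtcagaaGGACtcctatgtgggt
Actg1, chr11:120347834-120347861, minus strand: catgggccagaaAGACtcatacgtgggt
The 2 windows were identical at 23 of 28 bases. Counted from 1 at the 5′ end of the window, the substitution G13A changed the GGAC core to AGAC, so that the *Actg1* peak held a different core at this place. The GGAC nearest to the *Actg1* summit, at -889 nt, was shared with *Actb*, where 26 of the 28 aligned bases were identical, the GGAC included, and lay inside the *Actb* peak of both genotypes.

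The middle peak of *Actb*, in exon 4, had a fold enrichment of 1.51 in WT and 1.98 in R255K. Its nearest GGAC lay in a window that *Actg1* repeats base for base, without an *Actg1* peak there in either genotype.
Actb, chr5:142904582-142904609, minus strand: cctggctggccgGGACctgacagactac
Actg1, chr11:120347149-120347176, minus strand: cctggctggccgGGACctgacagactac
The same 28 bases were therefore inside a peak in 1 actin mRNA and outside any peak in the other.

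Around the stop codon, *Actb* had a peak of fold enrichment 1.64 in WT and 2.61 in R255K. *Actg1* had a peak there in R255K, at chr11:120346374-120346980, enriched 3.04-fold at a −log10 q of 38.7, and none in WT. Both mRNAs hold a GGAC just past the stop codon, with the A at 5 nt from its last base, and both are shown with the end of the coding sequence.
Actb, chr5:142903780-142903807, minus strand: gtgcttctaggcGGACtgttactgagct
Actg1, chr11:120346372-120346399, minus strand: atgcttctagatGGACtgagcaggtgcc
A further *Actb* peak in the 3′ UTR, at chr5:142903192-142903440, was listed in R255K alone, with a fold enrichment of 1.78, and held 0 GGAC.

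The α-tubulin peaks lay at the 3′ end of the coding sequence and were listed in WT alone. The peak of *Tuba1c* (chr15:99037813-99038091, plus strand) was enriched 3.20-fold at a −log10 q of 37.4. That of *Tuba1b* (chr15:98931514-98931942, minus strand) was the weakest of the members, at 1.499-fold and a −log10 q of 4.58. The coding sequences of the 3 genes were 97.1% to 98.3% identical, with shared runs of 281 to 468 nt. Reads can fall wholly within such runs, and the authors kept uniquely aligned reads, so the assignment of peaks and counts among the 3 α-tubulins is uncertain.

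The long coding peak of *Tubb5*, the main β-tubulin gene here (chr17:35833921-35838306, minus strand), had a fold enrichment of 2.156 in WT and 2.488 in R255K. *Tubb4b* (chr2:25222160-25224702, minus strand) had a peak over the same stretch of its last exon, at 2.33 in WT and 1.84 in R255K. The GGAC nearest to the WT summit of *Tubb5* is shown with the aligned bases of *Tubb4b*, since both windows lay inside a peak in both genotypes.
Tubb5, chr17:35835347-35835374, minus strand: gccgtcttccgtGGACggatgtccatga
Tubb4b, chr2:25222676-25222703, minus strand: gccgtgttcaggGGCCgcatgtctatga
These windows shared 22 of 28 bases, and A15C removed the adenosine of the core in *Tubb4b*, whose peak held 5 GGAC elsewhere.

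At its ends *Tubb5* differed between the lists. A 3′ UTR peak at chr17:35834346-35834568, with a fold enrichment of 1.66, was listed in WT alone. A peak over the start codon, with its summit in the 5′ UTR at chr17:35837871-35838225 and a fold enrichment of 1.99, was listed in R255K alone, and its nearest GGAC lay in the coding sequence.
Tubb5, chr17:35838011-35838038, minus strand: cacatccaggccGGACagtgtggcaacc

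The 5′ peak of *Tubb4b* was at 1.71 and 1.80 in WT and R255K. The *Tubb6* peak (gene at chr18:67390717-67402748, plus strand), in the last exon, was at 2.54 in WT and 1.86 in R255K. GGAC, searched on the gene's strand within 100 bp to either side of the summit, was present at 5 of 10 WT and 5 of 11 R255K peaks of the members (50% and 45.5%). Over all exonic peaks with such a window the shares were 79% in WT and 82.4% in R255K, above those of the member peaks in both lists, as a description without a test. Over their full widths, only the 3′ UTR peaks of *Tubb5* in WT and of *Actb* in R255K held 0 GGAC. Shares over full widths, or for genes of at least 100 FPKM alone, were not computed for other peaks.

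At 0 h in WT cells, the members were among the most abundant mRNAs apart from *Tubb6*. *Tuba1b* stood at 638 FPKM, *Tubb5* at 596 and *Actb* at 536, which ranked them 23, 29 and 33 among all genes. *Tubb4b* followed at 372 FPKM and *Actg1* at 360, then *Tuba1c* at 232 and *Tuba1a* at 223. *Tubb6*, the class V β-tubulin, stood at 36.6 FPKM and rank 1885. Each step in this order was larger than the counting error of the neighbours, and over the 6 libraries the one pair of neighbours whose ratio had a counting interval that included 1 was *Actg1* and *Tubb4b* in R255K at 0 h. These are levels per annotated exon length of the gene. For *Actb* that length was 2679 bp, where the mRNA drawn in the peak map has 1920 nt. For *Tuba1b* the lengths were 1875 bp and 1743 nt. The order of genes with close levels can therefore depend on the length used, and replicate error could not be estimated. Counts for these levels ran from 1119 for *Tubb6* in WT at 8 h to 54042 for *Tubb5* in R255K at 8 h.

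The plot of levels by library shows all 8 courses. By eye, *Tubb6* was far apart between genotypes at each time, *Tubb4b* was lower at 8 h than at 0 h in WT but not in R255K, *Actg1* ran in parallel with an offset, and the other 5 genes stood higher at 8 h than at 0 h in both genotypes.

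**Figure D2:**
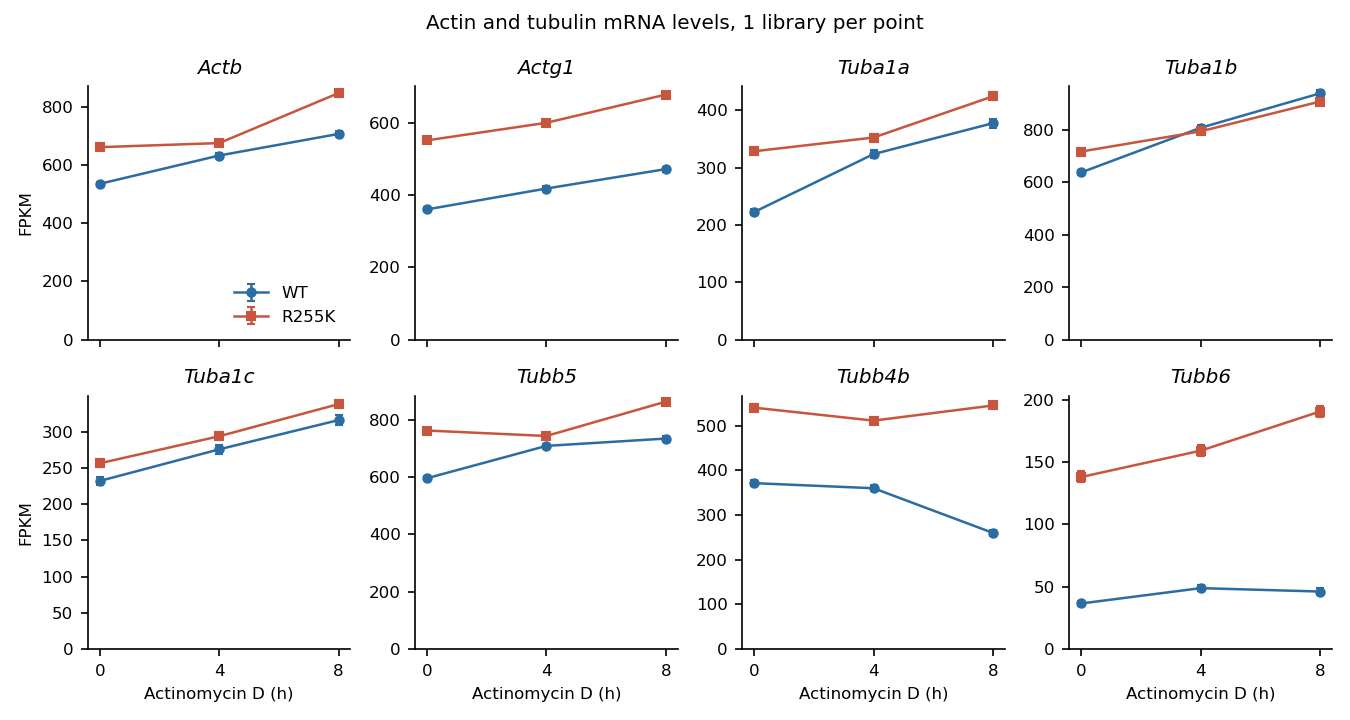
FPKM of each gene against hours in actinomycin D, with WT as blue circles and R255K as red squares. Each point is 1 library and the bars are 95% Poisson counting intervals, mostly smaller than the symbol; *Tubb6* runs from 36.6 to 48.9 FPKM in WT and from 138 to 190 FPKM in R255K.

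The first comparison asked how the mRNA levels of R255K cells differed from WT before transcription was blocked. All 8 members were higher in R255K at 0 h, with a median of 1.36-fold against 1.04-fold over the 11869 genes. Past the 1.5-fold threshold used throughout were 2 of 8, *Tubb6* and *Actg1*, where 20.6% of all genes were higher and 19.3% lower by that much (15.5% and 25.2% when scaled to ribosomal protein genes). Each member lay above the median of all genes, between the point with 55.5% and the point with 97.2% of genes below it. The direction at 0 h held under TMM and DESeq2 scaling, while *Tuba1c* turned lower when libraries were scaled to ribosomal protein genes and *Tuba1b* and *Tuba1c* when a GC trend was removed.

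Among actins, *Actb* had 25048 counts (536 FPKM) in WT and 27767 counts (663 FPKM) in R255K at 0 h, a 1.24-fold higher level (1.21 to 1.26). *Actg1* had 16692 counts (360 FPKM) and 22926 counts (551 FPKM), 1.53-fold higher, or 0.61 (0.59 to 0.64) on the log2 scale. *Actg1* lies on chromosome 11, where the 984 genes over the filter had a median log2 ratio of 0.58 in R255K against WT, so the gene stood near the middle of its chromosome. The medians of the other chromosomes ran from -0.23 to 0.16. At 8 h the chromosome 11 median was 0.93 and the *Actg1* log2 ratio 0.52.

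*Actg1* had a larger ratio of R255K to WT at 0 h than *Actb*. Over the median of its own chromosome, however, *Actg1* stood at 1.03-fold and *Actb* at 1.18-fold. A ratio within the library removes the scaling but not such an offset of a chromosome. The ratio of *Actg1* to *Actb* FPKM, which no scaling of libraries can alter, was 0.672, 0.659 and 0.666 in WT at 0, 4 and 8 h. In R255K it was 0.832, 0.887 and 0.799, so the R255K ratios lay above all WT ratios, with the nearest counting bounds at 0.787 and 0.685. γ-actin mRNA made up 40.2% of the summed actin FPKM in WT and 45.4% in R255K at 0 h.

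Summed over the family, the α-tubulins differed least at 0 h, although *Tuba1a* differed more than *Actb*, *Tubb5* or *Tubb4b*. *Tuba1b*, the main α-tubulin mRNA here, had 638 FPKM in WT and 718 in R255K at 0 h, 1.12-fold (1.10 to 1.15). *Tuba1c* had 232.1 and 256.5 FPKM, 1.11-fold (1.07 to 1.14). *Tuba1a*, the isoform of developing neurons, had 223 and 328 FPKM, 1.48-fold (1.43 to 1.52), just inside the threshold. Within libraries, *Tuba1a* to *Tuba1b* stood at 0.349, 0.400 and 0.402 in WT and at 0.458, 0.443 and 0.467 in R255K. *Tuba1c* to *Tuba1b* overlapped between genotypes, at 0.336 to 0.364 in WT and 0.357 to 0.372 in R255K.

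Among the members, the largest difference at 0 h was that of the β-tubulin *Tubb6*, while *Tubb5* and *Tubb4b* lay below *Actg1* and *Tuba1a*. *Tubb5* had 34572 counts (596 FPKM) in WT and 39686 counts (763 FPKM) in R255K at 0 h, 1.28-fold higher (1.26 to 1.30). *Tubb4b*, a β-tubulin found in most tissues and in cilia, had 13524 counts (372 FPKM) and 17659 counts (541 FPKM), 1.45-fold higher (1.42 to 1.49). *Tubb6* had 1120, 1286 and 1119 counts in WT at 0, 4 and 8 h and 3791, 5197 and 6294 counts in R255K. All 3 R255K libraries were above all 3 WT libraries, at 138, 159 and 190 FPKM against 36.6, 48.9 and 46.1 FPKM. The fold was 3.77 (3.53 to 4.03) at 0 h, 3.26 (3.06 to 3.46) at 4 h and 4.13 (3.87 to 4.40) at 8 h. At 0 h 97.2% of the 11869 genes had a lower ratio than *Tubb6*. The fibroblast markers *Col1a1*, *Col1a2*, *Col3a1* and *Thy1* were higher in the same 3 libraries, with *Postn* and *Dcn* at 0 to 9 counts in all 6, and their part in the *Tubb6* level was not tested. *Tubb6* held its call under all 4 scaling and GC alternatives, with log2 ratios of 1.67 to 1.87 at 0 h, 1.43 to 1.91 at 4 h and 1.44 to 2.41 at 8 h.

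**Figure D3:**
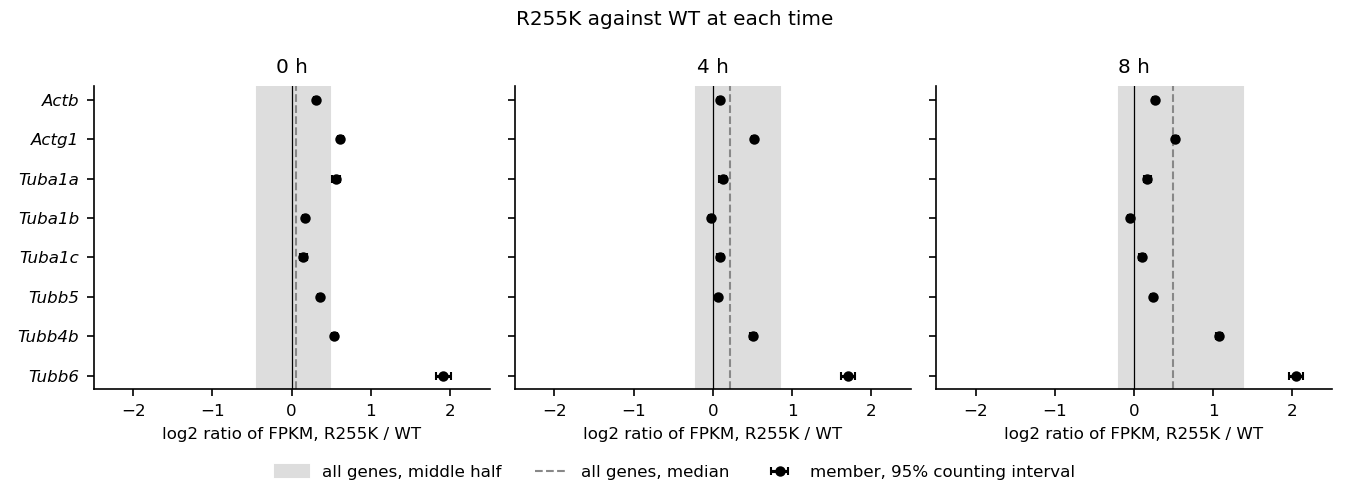
log2 ratio of FPKM, R255K over WT, for each gene at 0, 4 and 8 h; points are the members with 95% counting intervals, the grey band spans the lower to the upper quartile of 11869 genes and the dashed line is their median. *Tubb6* lies right of the band in each panel, and the median of all genes goes from 0.06 at 0 h to 0.49 at 8 h while that of the members goes from 0.45 to 0.25.

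The comparison of genotypes was repeated after 4 and 8 h in actinomycin D, when the sampled mRNAs are those that survived. At 4 h 1 member, *Tubb6*, was higher by over 1.5-fold, where 33.9% of all genes were higher and 9.58% lower. *Actg1* was 1.44-fold (1.41 to 1.46) and *Tubb4b* 1.42-fold (1.39 to 1.45), and the other 5 lay between 0.98-fold and 1.09-fold. At 8 h 2 members, *Tubb4b* and *Tubb6*, were higher by over 1.5-fold, where 46.7% of all genes were higher and 10.2% lower. The member median was 1.19-fold at 8 h against 1.40-fold over all genes, so the members stood below the genome as a whole although 7 of 8 were above 1. Of the 8, 5 had a lower ratio than the median gene.

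*Tubb4b* went from 1.45-fold at 0 h to 2.10-fold (2.04 to 2.15) at 8 h. *Tuba1b* went from 1.12-fold to 0.97-fold (0.95 to 0.98). The values at 8 h for *Actb*, *Tuba1a*, *Tuba1c* and *Tubb5* lay between 1.07-fold and 1.198-fold, and each of these 4 turned below 1 under TMM and under DESeq2 scaling. Such scaling moved the median log2 ratio of all genes at 8 h by -0.43 and -0.60, and scaling to ribosomal protein genes moved it by 0.37. The share of all genes higher and lower at 8 h was then 34% and 26.4% under TMM, 29.5% and 33.2% under DESeq2 scaling and 59.3% and 4.2% against ribosomal protein genes. At 4 h it was 26.4% and 17.2% under TMM and 24.9% and 19% under DESeq2 scaling. *Actg1*, at 1.44-fold (1.41 to 1.46) at 8 h, turned below 1 under DESeq2 scaling, at a log2 ratio of -0.08, and the 8 h call of *Tubb4b* was lost there, at 0.46.

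The courses under actinomycin D asked which of these mRNAs persist. After the block, a lasting mRNA gains share of the library as others decay, so a level is relative to the rest. In WT, 7 of 8 members were higher at 8 h than at 0 h and 1 of them, *Tuba1a*, by over 1.5-fold, where 18.7% of all genes rose and 50.3% fell by that much. The member median was 1.31-fold against 0.66-fold over all genes. In R255K all 8 were above 1 at 8 h and 0 were past 1.5-fold, where 7.15% of genes rose and 31.9% fell, and the medians were 1.27-fold and 0.92-fold. At 4 h 0 members passed the threshold in either genotype, where 9.12% rose and 36.9% fell in WT and 8.47% and 22.4% in R255K. Ribosomal protein mRNAs, which gained share from 4.26% to 7.08% of counts in WT and from 4.74% to 5.49% in R255K, are another lasting set. Scaled to them, 7 of 8 members were below 1 in WT at 8 h, and in R255K 2 were, *Tubb5* and *Tubb4b*. The median log2 ratio of all genes at 8 h in WT moved by 0.52 under TMM, 0.70 under DESeq2 scaling, 0.29 with the GC trend removed and -0.73 against ribosomal protein genes. The shares of all genes higher and lower there became 34.9% and 41%, 39.5% and 38%, 26.9% and 44.6%, and 1.36% and 67.7%. In R255K at 8 h they became 12% and 28.1% under TMM and 16.8% and 26.5% under DESeq2 scaling. In WT at 4 h they became 20.7% and 32.2% under TMM, 23.6% and 30.9% under DESeq2 scaling, 16.6% and 33% with the GC trend removed and 1.26% and 51.7% against ribosomal protein genes.

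*Actb* stood at 536, 634 and 708 FPKM in WT at 0, 4 and 8 h, and at 663, 677 and 849 FPKM in R255K. *Actg1* stood at 360, 418 and 472 FPKM and at 551, 600 and 678 FPKM. Both actins thus stood at similar multiples of their 0 h level, 1.32-fold (1.30 to 1.34) and 1.31-fold (1.28 to 1.34) in WT at 8 h. In R255K these were 1.28-fold and 1.23-fold. Against ribosomal protein genes, both lay below 1 in WT and above 1 in R255K.

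*Tuba1a* rose most in WT, through 223, 323 and 377 FPKM, which is 1.70-fold (1.64 to 1.75) at 8 h. In R255K it stood at 328, 352 and 424 FPKM, 1.29-fold (1.26 to 1.33). The gap between genotypes at 0 h had therefore narrowed by 4 h. *Tuba1b* stood at 638, 809 and 940 FPKM in WT and 718, 795 and 909 FPKM in R255K, so that its WT level was lower at 0 h and higher at 8 h. *Tuba1c* stood at 232, 276 and 316 FPKM and at 256.5, 294 and 338 FPKM. *Tuba1c* had nearly parallel courses, with a ratio of the 8 h factors, R255K over WT, of 0.97 (0.93 to 1.01).

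*Tubb5* stood at 596, 709 and 735 FPKM in WT and at 763, 744 and 863 FPKM in R255K. *Tubb4b* was the one member below its 0 h level in WT at 8 h, with 372, 360 and 260 FPKM and 0.70-fold (0.68 to 0.72), which is inside the threshold. In R255K it stood at 541, 512 and 546 FPKM, 1.01-fold (0.99 to 1.03). In 0 of 8 members did the factors of the genotypes differ by over 1.5-fold at 8 h, where 44.2% of all genes were higher in R255K and 9.39% lower, or at 4 h, where 31.7% were higher and 6.45% lower. The 8 h shares became 33.1% and 25.5% under TMM, 30.5% and 30.4% under DESeq2 scaling, 38% and 15% with the GC trend removed and 63.1% and 2.1% against ribosomal protein genes. For *Tubb4b* the ratio of the 8 h factors was 1.44 (1.39 to 1.49), the one member ratio at 8 h whose interval lay wholly above 1, while the median over all genes was 1.33 and 53.9% of genes had a lower ratio than *Tubb4b*. *Tubb4b* was therefore close to the typical gene in this contrast and the other members lay below it. The WT course of *Tubb4b* depended on the reference: the log2 ratio at 8 h of -0.51 became 0.01 under TMM, 0.19 under DESeq2 scaling and -1.25 against ribosomal protein genes.

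**Figure D4:**
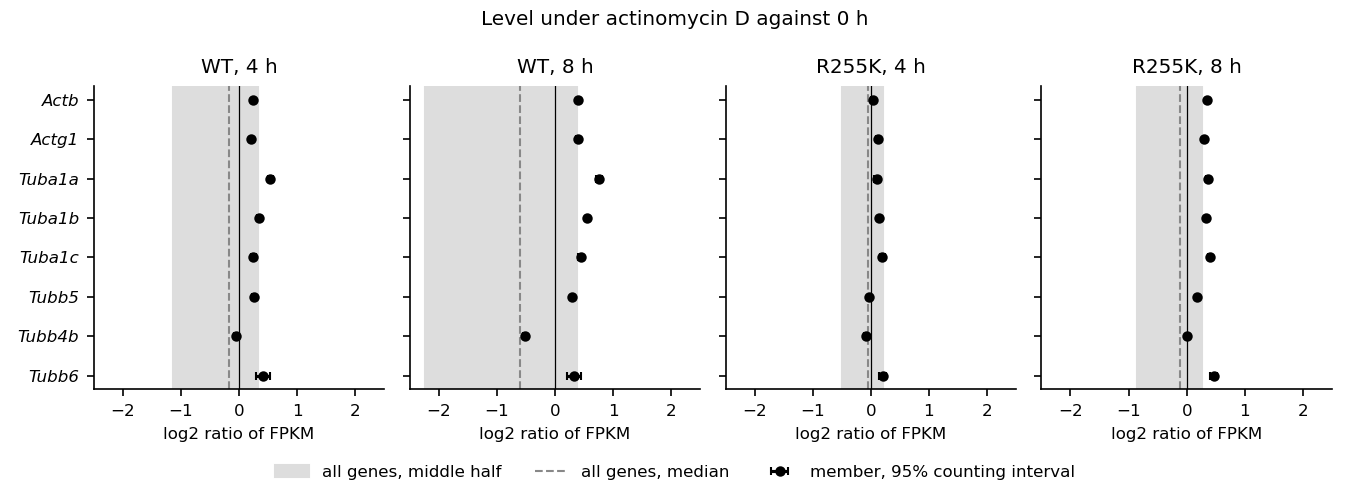
log2 ratio of FPKM at 4 and 8 h over 0 h in WT and R255K; points are the members with 95% counting intervals, the grey band spans the lower to the upper quartile of 11869 genes and the dashed line is their median. In WT at 8 h *Tubb4b* lies at -0.51 beside a gene median of -0.60 and the other 7 members lie between 0.30 and 0.76.

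Because *Tubb5* and *Tubb4b* were counted in the same libraries, their ratio is free of that choice. *Tubb4b* to *Tubb5* was 0.623 (0.611 to 0.636), 0.508 (0.497 to 0.519) and 0.354 (0.345 to 0.363) in WT at 0, 4 and 8 h. In R255K it was 0.709 (0.697 to 0.722), 0.688 (0.677 to 0.700) and 0.632 (0.622 to 0.642). The ratio was thus lower at 8 h than at 0 h in both genotypes, and the R255K interval at 8 h still overlapped the WT interval at 0 h. *Tubb4b* made up 37.0% of the summed FPKM of the 3 β-tubulins in WT and 37.5% in R255K at 0 h, and *Tubb5* went from 59.4% at 0 h to 70.6% at 8 h in WT and from 52.9% to 54.0% in R255K. *Tubb6* to *Tubb5* was 0.0613, 0.0689 and 0.0628 in WT and 0.181, 0.214 and 0.221 in R255K, without overlap between the genotypes.

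**Figure D5:**
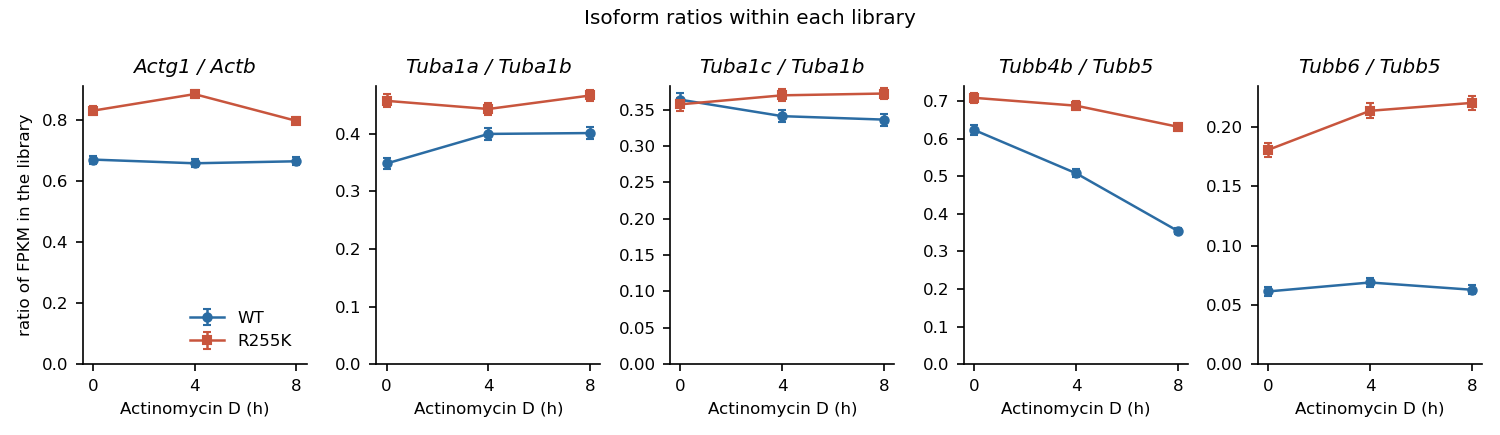
Ratios of FPKM between isoforms within each library against hours in actinomycin D, WT as blue circles and R255K as red squares, with 95% counting intervals. *Tubb4b* over *Tubb5* goes from 0.623 to 0.354 in WT and from 0.709 to 0.632 in R255K, and *Tubb6* over *Tubb5* stays below 0.07 in WT and above 0.18 in R255K.

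Summed by family, the actins had 897, 1052 and 1180 FPKM in WT and 1214, 1277 and 1527 FPKM in R255K. The 3 α-tubulins had 1093, 1408 and 1633 FPKM and 1303, 1441 and 1671 FPKM. Scaled to library totals, they met at 4 and 8 h, at a ratio of 1.02 each. The 3 β-tubulins had 1004, 1118 and 1041 FPKM and 1441, 1414 and 1599 FPKM, a ratio of 1.43 at 0 h and 1.54 at 8 h. Another scaling multiplies all genotype ratios of a time alike. At 8 h the factor was 0.74 under TMM, 0.66 under DESeq2 scaling and 1.29 against ribosomal protein genes. It was 0.86, 0.83 and 1.15 at 4 h and 0.97, 0.93 and 0.90 at 0 h. The meeting of the α-tubulins therefore depended on the scaling.

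The study's lifetime measure was applied to the members, as the mean decay rate over 4 and 8 h relative to the library. Only *Tubb4b* had a rate above 0, as had 7159 of the 11869 genes in WT and 6535 in R255K. Its half-life was 26.5 h (22.9 to 31.5) in WT and 110 h (71.5 to 235) in R255K, a ratio of 4.14 (2.37 to 7.22), where 68.8% of the 5542 genes with a rate above 0 in both genotypes had a ratio over 1.5. Both values are far longer than the 8 h sampled. The ratio could not be formed under TMM, DESeq2 scaling, GC removal or with the 8 h point alone, and with the 4 h point alone it turned to 0.565, a shorter half-life in R255K.

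The genes most like each member over the 6 libraries were sought among 4835 genes with a mean of at least 10 FPKM over these libraries, by the root mean square difference of centred log2(FPKM + 1) profiles. The nearest pairs, given here for 7 members, were *Bckdk* and *Gatd1* for *Actb*, *Mbd3* and *Slc25a11* for *Actg1*, and *Ifitm2* and *Tmem14c* for *Tuba1a*. For *Tuba1c* they were *Atp6ap1* and *Gpn1*, for *Tubb5* *Pusl1* and *Ezr*, and for *Tubb4b* *Zdhhc8* and *Ppif*. These differences ran from 0.018 to 0.045 log2 units. *Tubb6* had no close neighbour, since its nearest, *Rpl39l* and *Pramef12*, were at 0.12 and 0.13. Among the members, the most alike were *Tuba1b* and *Tuba1c*, at 0.056, and *Actb* and *Tubb5*, at 0.063.

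The genes that make, fold and bind actin and tubulin were taken as 12 lists with 80 genes, of which 68 were over the FPKM filter. In WT at 8 h against 0 h, 30 of 68 rose by over 1.5-fold (44.1%, background 18.7%) and 10 fell (14.7%, background 50.3%). In R255K 7 rose (10.3%, background 7.15%) and 6 fell (8.82%, background 31.9%). The share that fell was thus below the background in both genotypes. The share that rose was above the background in WT and close to it in R255K. The 30 WT calls became 53 under TMM (77.9%, background 34.9%) and 56 under DESeq2 scaling (82.4%, background 39.5%). Against ribosomal protein genes they became 0, where the background was 1.36%, so the count depends on the reference. At 0 h, 16 were higher in R255K (23.5%, background 20.6%) and 11 lower (16.2%, background 19.3%), close to the background in both directions.

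The counts by list are for 8 h against 0 h, where 18.7% of all genes rose in WT and 7.15% in R255K. Against ribosomal protein genes, 0 of the 68 genes rose in WT. Actin monomer binders, which feed and recycle actin subunits, held 7 of 10 risers in WT at 8 h and 2 of 10 in R255K. In this list *Pfn2* fell in both, to 0.11-fold in WT and 0.23-fold in R255K. The most abundant were *Cfl1*, which severs filaments, at 417, 612 and 814 FPKM in WT and 508, 541 and 617 FPKM in R255K, and *Pfn1*, which loads actin with ATP, at 206, 275 and 314 FPKM and 334, 335 and 382 FPKM. *Pfn1* also lies on chromosome 11 and was 1.63-fold higher in R255K at 0 h. Of the Arp2/3 complex, the nucleator of branched actin, 6 of 9 rose in WT and 1 in R255K. *Actr2* stood at 73.7, 102 and 114 FPKM in WT and 43.7, 100 and 104 FPKM in R255K, and *Arpc2* at 77.0, 105 and 118 FPKM and 79.3, 89.5 and 94.2 FPKM. Of the CCT chaperonin, which folds both proteins, 4 of 8 rose in WT and 2 in R255K. *Cct5* had 291 and 514 FPKM at 0 and 8 h in WT, past the threshold, and 323 and 400 FPKM in R255K. *Cct2* had 277 and 397 FPKM in WT and 302 and 348 FPKM in R255K.

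Prefoldin, which hands unfolded chains to CCT, had 3 of 6 risers in WT and 1 faller, where 18.7% of all genes rose and 50.3% fell. *Pfdn1* stood at 96.1 and 215 FPKM at 0 and 8 h in WT, whereas *Pfdn6* fell from 87.9 to 40.0 FPKM in WT and from 104 to 48.3 FPKM in R255K. Of the list of tubulin cofactors, 3 of 7 rose in WT and 0 in R255K, and *Tbcc* fell in both, to 0.03-fold in WT and 0.22-fold in R255K. The risers included *Tbca* at 88.2 and 173 FPKM and *Tbcb* at 57.6 and 95.4 FPKM at 0 and 8 h in WT. Of 8 microtubule binders, 2 rose and 3 fell in WT at 8 h, where *Ckap5* stood at 0.28-fold, *Clasp1* at 0.42-fold and *Clasp2* at 0.40-fold, and 1 rose and 0 fell in R255K. At 0 h 3 of the 8 were lower in R255K and 0 higher, where 19.3% of all genes were lower and 20.6% higher. *Stmn1*, which sequesters tubulin dimers, stood at 259 FPKM in WT and 168 FPKM in R255K at 0 h, 0.65-fold, and at 0.44-fold at 8 h. *Tpx2*, a spindle assembly factor, was at 70.5 and 47.6 FPKM.

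SRF and its coactivators MRTF-A and MRTF-B, which *Mkl1* and *Mkl2* encode, drive actin transcription. *Srf* stood at 15.1 FPKM in WT and 27.3 FPKM in R255K at 0 h, 1.80-fold, and *Mkl1* at 6.33 and 9.48 FPKM, 1.499-fold. *Mkl1* was short-lived in both, at 0.04-fold in WT and 0.11-fold in R255K after 8 h. Of 8 expressed SRF targets, 4 were higher and 2 lower in R255K at 0 h, where 20.6% of all genes were higher and 19.3% lower. A relation of these targets to the *Srf* level was not tested. The most abundant were *Tagln2*, lower at 47.2 FPKM against 85.0 FPKM, and *Flna*, a filamin that crosslinks actin, at 84.8 FPKM against 76.8 FPKM.

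The other isoforms of the same families were scarcer than each member but *Tubb6*. At 36.6 FPKM in WT at 0 h, *Tubb6* lay below *Tubb2b*, *Tubb3* and *Tuba4a*. The muscle actins were below the filter, with *Acta2* at 0 to 0.04 FPKM in WT and 0.90 to 1.29 FPKM in R255K and *Acta1* at 0.05 to 0.09 FPKM and 0.58 to 1.04 FPKM. Both were higher in each R255K library than in any WT library. *Tuba4a* stood at 56.7 FPKM in WT and 70.8 FPKM in R255K at 0 h, and *Tuba3a* at 3.31 and 12.1 FPKM, 3.65-fold. *Tubb2b*, a neuronal β-tubulin, was lower in R255K at each time, at 133, 183 and 222 FPKM in WT and 80.7, 92.9 and 115 FPKM in R255K. *Tubb3*, another neuronal isoform, stood at 106 and 142 FPKM at 0 h. Of the β-tubulin genes over the filter, *Tubb2b* alone was lower in R255K at 0 h, at 0.61-fold. *Tubb6* was 3.77-fold, *Tubb5* 1.28-fold, *Tubb4b* 1.45-fold, *Tubb3* 1.34-fold and *Tubb2a* 2.02-fold. *Tubb4a* was 5.14-fold, from 18 counts in WT and 83 in R255K. Of the centrosomal and rarer tubulins, *Tubg1*, on chromosome 11, was at 32.6 and 67.7 FPKM at 0 h, 2.08-fold, and *Tubd1* at 6.26 and 6.05 FPKM.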

How the data were processed

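Counts per gene were deposited by the authors for 6 actinomycin D libraries, raw and without normalization, beside exon coordinates and the exon length in bp. Reads on rRNA had been removed with Bowtie2 2.2.6, the rest aligned to mm10 with HISAT2, and unique reads kept with Picard 2.16.0 and SAMtools 0.1.09; the counting tool, its strand setting and the annotation are not given in the sources used here. Peaks were called by the authors with MACS2 against input, 1 list per genotype, with fold enrichment (a ratio), −log10 q values and a summit offset as deposited. How the 2 pairs of libraries were combined is not given in the sources used here, and no depth of the peaks is known.

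From the counts, FPKM was computed over the summed counts. Ratios have exact conditional binomial intervals and levels exact Poisson intervals, both at 95% and for counting error only; counts below 3 were set to 3 over the background genes. Decay rates are the mean of ln(A0/At)/t over 4 and 8 h, with delta-method intervals. A call is a change past 1.5-fold, with no test. Peaks were assigned to a gene by at least 1 bp of exon overlap and shared by at least 1 bp of each other, and positions were converted to start at 1. Alternatives were edgeR 4.0.16 TMM factors, DESeq2 1.42.0 size factors, the sum of 82 ribosomal protein genes, a lowess trend in GC removed, no FPKM filter, 4 or 8 h alone, a −log10 q of at least 5, 50% coverage and GENCODE exons. The ratio and interval computations were tested on simulated data. Named were all 8 members, the 2 most abundant genes of each pathway list at 0 h and the 2 genes of nearest profile per member (mean of at least 10 FPKM). The neighbours of *Tuba1b* and the α-tubulin sequences are not reported here. The members, lists and markers were chosen with earlier results of these data known. Exons of *Actg1* overlap *Gm23419* and *Mir6935* (0 counts) and those of *Tubb4b* overlap the antisense *Fam166a* (0 to 2 counts). Python 3.11.15 and R 4.3.3 were used.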

Additional observations from a re-analysis of the deposited data

Results flagged for a closer look

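In 2 genes the direction of an effect differed between conditions. *Tuba1b* was 1.12-fold in R255K against WT at 0 h and 0.97-fold at 8 h, a difference of -0.22 on the log2 scale. *Tubb5* was 1.19-fold in WT at 4 h against 0 h and 0.98-fold in R255K, a difference of -0.29 on the log2 scale. Neither difference was tested, because each group is 1 library, and neither effect passed 1.5-fold. Both turns depended on the scaling. For *Tuba1b* the log2 ratio was above 0 at both times against ribosomal protein genes, at 0.01 and 0.32, and below 0 at both with the GC trend removed, at -0.05 and -0.11. For *Tubb5* both genotypes were above 0 under DESeq2 scaling, at 0.49 in WT and 0.05 in R255K, and with the GC trend removed, at 0.25 and 0.04, and both below 0 against ribosomal protein genes, at -0.21 and -0.13.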

How the results depend on the processing

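Counts of members past 1.5-fold moved with the scaling. Members higher in R255K at 0 h went from 2 to 1 under TMM, DESeq2 size factors, ribosomal protein genes and GC removal, since *Actg1* lost its call. Of all genes 19%, 16.7%, 15.5% and 19.9% were higher there. At 4 h members higher went from 1 to 3 with ribosomal protein genes, where 42.7% of all genes were higher. At 8 h members higher went from 2 to 1 under DESeq2 and to 5 with ribosomal protein genes, where 29.5% and 59.3% of all genes were higher. Members lower at 8 h went from 0 to 1 under DESeq2, where 33.2% of all genes were lower. In WT, members that rose went from 0 to 2 at 4 h under TMM and DESeq2, and at 8 h from 1 to 7 under TMM and DESeq2, to 2 with GC removal and to 0 with ribosomal protein genes, which put 1 lower. In R255K at 8 h members that rose went from 0 to 1 under TMM and GC removal and to 2 under DESeq2. Of all genes 12%, 9.48% and 16.8% rose there. For R255K over WT of the 8 h factors, chosen after seeing the data, lower went from 0 to 2 (TMM) and 3 (DESeq2). Higher went from 0 to 2 (ribosomal protein genes) and 1 (GC removal). The shares of all genes for WT and for the 8 h factors are given with the courses above. At 4 h lower went from 0 to 1 under TMM and DESeq2, where 14.3% and 13.2% of all genes were lower. Half-life ratios over 1.5 went from 1 to 0 under TMM, DESeq2, GC removal, 4 h alone and 8 h alone and to 2 with ribosomal protein genes. Of all genes with a ratio, 60.1% (TMM) to 75.5% (8 h alone) were over 1.5 in the former settings and 81.3% in the last. Members with a rate above 0 in WT went from 1 to 0 under TMM and DESeq2 and to 7 with ribosomal protein genes, and in R255K from 1 to 0 under TMM, DESeq2, GC removal and 8 h alone and to 2 with ribosomal protein genes and 4 h alone. The peak counts stayed within 1.5 times; at a −log10 q of at least 5, 8 WT peaks remained listed, 2 of them lost. The FPKM filter moved no member value. The half-life ratio of *Tubb4b*, 4.14, reversed to 0.565 with 4 h alone; no other member value past the threshold reversed. Isoform ratios within a library do not depend on the scaling of libraries. GC removal acts gene by gene and can move them, but they were not computed under it. At 0 h it took the log2 ratio of R255K to WT from 0.61 to 0.39 for *Actg1* and from 0.30 to 0.16 for *Actb*. No paired analysis was possible because the peak lists carry no value per replicate and the count libraries have 1 per group. No replicate could be left out for the same reason. Depth limits little here, with at least 1119 counts per member; the spread between cultures is unknown.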

Other observations

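On the mRNAs of the 80 genes that make, fold or bind actin and tubulin, 51 WT and 49 R255K peaks were listed. Of the WT peaks 20 had no R255K counterpart (39.2%, against 47.9% of all exonic WT peaks), and of the R255K peaks 18 had no WT counterpart (36.7%, against 13.1% of all exonic R255K peaks and 41.9% of those on genes of at least 100 FPKM). Microtubule binders lost 7 of 13 WT peaks (53.8%), a share near that of all exonic WT peaks, with *Map4*, which stabilises microtubules, at 5 in WT and 2 in R255K. SRF targets had 5 WT and 9 R255K peaks, 6 of the latter without a WT peak (66.7%, against the same 13.1%). None of these targets reached a mean of 100 FPKM at 0 h, so the 41.9% covers genes of higher level. Among them *Myh9*, the heavy chain of non-muscle myosin, had 3 WT and 6 R255K peaks. Actin monomer binders kept all 4 WT peaks and had 6 in R255K. *Map4* and *Myh9* were named after their values were seen. Of the chaperonin, *Tcp1* had a WT peak alone and *Cct6a* an R255K peak alone, also named after their values were seen.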
